A study of Mus musculus with 12 samples.

Results

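Genes for the burning of fatty acids and for ketone body metabolism were examined in epithelial cells of the mouse small intestine 24 h after experimental stroke. The set was a list of 41 gene symbols, and its members were the rows of the count table carrying those symbols. It held 40 of the 15855 genes analysed, and all 40 passed the filter on low counts, which left 14462 genes. The remaining symbol, Pbld1, was not analysed here. Although the set was drawn up for fatty acid oxidation and ketogenesis, only Bdh1 acts directly on ketone bodies. Acat1 is a thiolase that serves their making and use. Pbld1 and Pbld2 were listed as a pair, apart from the steps of oxidation.

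Both groups were C57BL6/J mice, adult males according to the methods of the study. In the pMCAO group (5 samples) a middle cerebral artery was occluded permanently, whereas the sham group (7 samples) had the same operation without the occlusion, and all tissue was taken 24 h after surgery. Live EpCAM+ cells, EpCAM being a surface protein of epithelia, were sorted from the whole small intestine without its ends, so proximal and distal segments were mixed. The labels number the samples of each group as separate biological replicates. RNA was read as gene counts, given below as CPM, counts relative to the library total, after scaling by the trimmed mean of M values (TMM).

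Total counts ranged from 7418730 to 31925579 per sample. The 4 libraries numbered 58 to 61 in the labels (3 sham, 1 pMCAO), called the early libraries here, stood apart from the 8 later libraries (4 sham, 4 pMCAO) on a leading principal component that held 40.5% of the variance. They had 13386 to 14712 genes detected, against 15343 to 15766 in the later libraries. All 10 enterocyte markers were measured, with summed levels of 16726 to 29116 CPM in sham and 19707 to 58097 CPM in pMCAO. Mitochondrial ribosomal RNA took 35.6% of counts on average in sham and 24.5% in pMCAO (two-sided exact permutation test, p = 0.136). In sorted cells measured in bulk, fewer cells of a type and less RNA per cell cannot be told apart.

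Fatty acids enter absorptive cells through carriers such as CD36, are joined to coenzyme A by acyl-CoA synthetases, and are either stored in triglyceride or oxidised. For oxidation they cross into mitochondria on carnitine, where each turn of beta-oxidation removes an acetyl-CoA and passes electrons to the respiratory chain, while peroxisomes shorten the longest chains. The nuclear receptor PPAR-alpha, activated by fatty acids, drives many of these genes, and in the villus the pathway works beside the uptake and packaging of dietary fat.

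PPAR-alpha binds DNA with its partner RXR at a direct repeat of AGGTCA with 1 base between the copies, and the window from 250 bases before to 50 after the start site was therefore searched on both strands. RefSeq promoter sequences (GRCm38.p6) were matched for 36 of the 41 symbols. This repeat lay in 0 of these 36 and in 0.0396% of all 32851 promoters. A looser form, AGGNCA repeated in the same way (N is any base), includes the stricter form and lay in 1 of 36 member genes, Pbld1, and in 0.451% of all genes. A single AGGTCA, which both repeats can contain, was present in 8 of 36 member genes (Cd36, Plin2, Cpt1a, Acadvl, Acadm, Scp2, Acot12 and Pbld1) and in 18.1% of all genes. The windows of Pbld2 and Crot are shown because these were the members whose pMCAO samples all exceeded all sham samples, and that of Pbld1, neighbour and close relative of Pbld2, because it held the repeat, given in capitals at offset -181 from the start site. They lie at chr10:63024262-63024561 (plus strand), chr5:8997097-8997396 (minus strand) and chr10:63061339-63061638 (plus strand), and are written 5′ to 3′ on the gene's strand.
Pbld2: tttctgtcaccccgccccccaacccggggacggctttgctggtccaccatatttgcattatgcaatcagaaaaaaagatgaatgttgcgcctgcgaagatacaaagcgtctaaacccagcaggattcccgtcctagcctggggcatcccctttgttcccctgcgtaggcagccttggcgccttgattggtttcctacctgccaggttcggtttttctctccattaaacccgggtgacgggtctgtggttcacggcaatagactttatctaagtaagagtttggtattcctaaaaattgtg
Crot: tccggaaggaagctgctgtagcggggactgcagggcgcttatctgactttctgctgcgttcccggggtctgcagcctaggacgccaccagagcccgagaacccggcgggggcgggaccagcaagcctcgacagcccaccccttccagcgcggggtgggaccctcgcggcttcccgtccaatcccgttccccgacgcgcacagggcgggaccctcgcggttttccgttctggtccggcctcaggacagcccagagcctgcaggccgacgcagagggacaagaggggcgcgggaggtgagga
Pbld1: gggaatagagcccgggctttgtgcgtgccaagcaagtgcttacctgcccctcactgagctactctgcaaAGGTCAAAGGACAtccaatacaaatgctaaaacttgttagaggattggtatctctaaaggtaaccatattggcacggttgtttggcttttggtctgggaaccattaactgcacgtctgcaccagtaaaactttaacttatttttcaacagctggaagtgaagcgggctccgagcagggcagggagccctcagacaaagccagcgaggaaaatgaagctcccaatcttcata
A match in these letters is a description of the window and not of a bound site.

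The question of the comparison was how stroke alters the epithelial transcriptome. With limma-voom on the group alone, 0 of the 40 members were called, as were 0% of all genes in either direction. A call needed an adjusted p no greater than 0.05 and a log2 fold change of 1 or more in size. The smallest adjusted p was 0.296 among the members and 0.0557 among all genes. At an unadjusted p under 0.05, 9 members were higher in pMCAO (22.5% of the 40), against 4.66% of all genes, and 1 member was lower, against 3.77% of all genes. edgeR called 0 members (0% of all genes) and DESeq2 called 1, Pdk4 (0.47% of all genes). Each had 8 members higher at an unadjusted p under 0.05, against 3.04% of all genes with edgeR and 3.29% with DESeq2, and 0 lower, against 3.4% and 4.68%. Log2 fold changes were above 0 for 28 members (70%) and for 55.2% of all genes, and below 0 for 12 members (30%) and 44.8% of all genes. The median was 0.19 for the members and 0.06 for all genes, and 0.074 and 0.028 without the early libraries.

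A fit that added 4 library runs to the group (libraries 58 to 61, 62 to 65, 66 to 68 and 72) called 2 members higher, Pbld2 and Acaa2, and 0 lower. Of all genes, 0.138% were called higher in that fit and 0.187% lower. At an unadjusted p under 0.05 it had 9 members higher (6.58% of all genes) and 2 lower (6.17%). These runs do not come from the labels. They were worked out from the authors' own deposited fold changes in an earlier look at these data. What they stand for is not known, and calls made with them are not independent of the authors' results. Run 4 held 1 sham sample alone, which left 3 runs with both groups. Run 1 had 3 sham samples and 1 pMCAO sample, run 2 had 2 of each, and run 3 had 1 sham and 2 pMCAO samples. Every difference within run 1 therefore rests on pMCAO sample 1, and every difference within run 3 on sham sample 6. In these 3 runs, 12 members were higher in pMCAO in every run (30% of the 40, against 16.9% of all genes). There was 1 member lower in every run (against 13.4%).

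**Figure D1:**
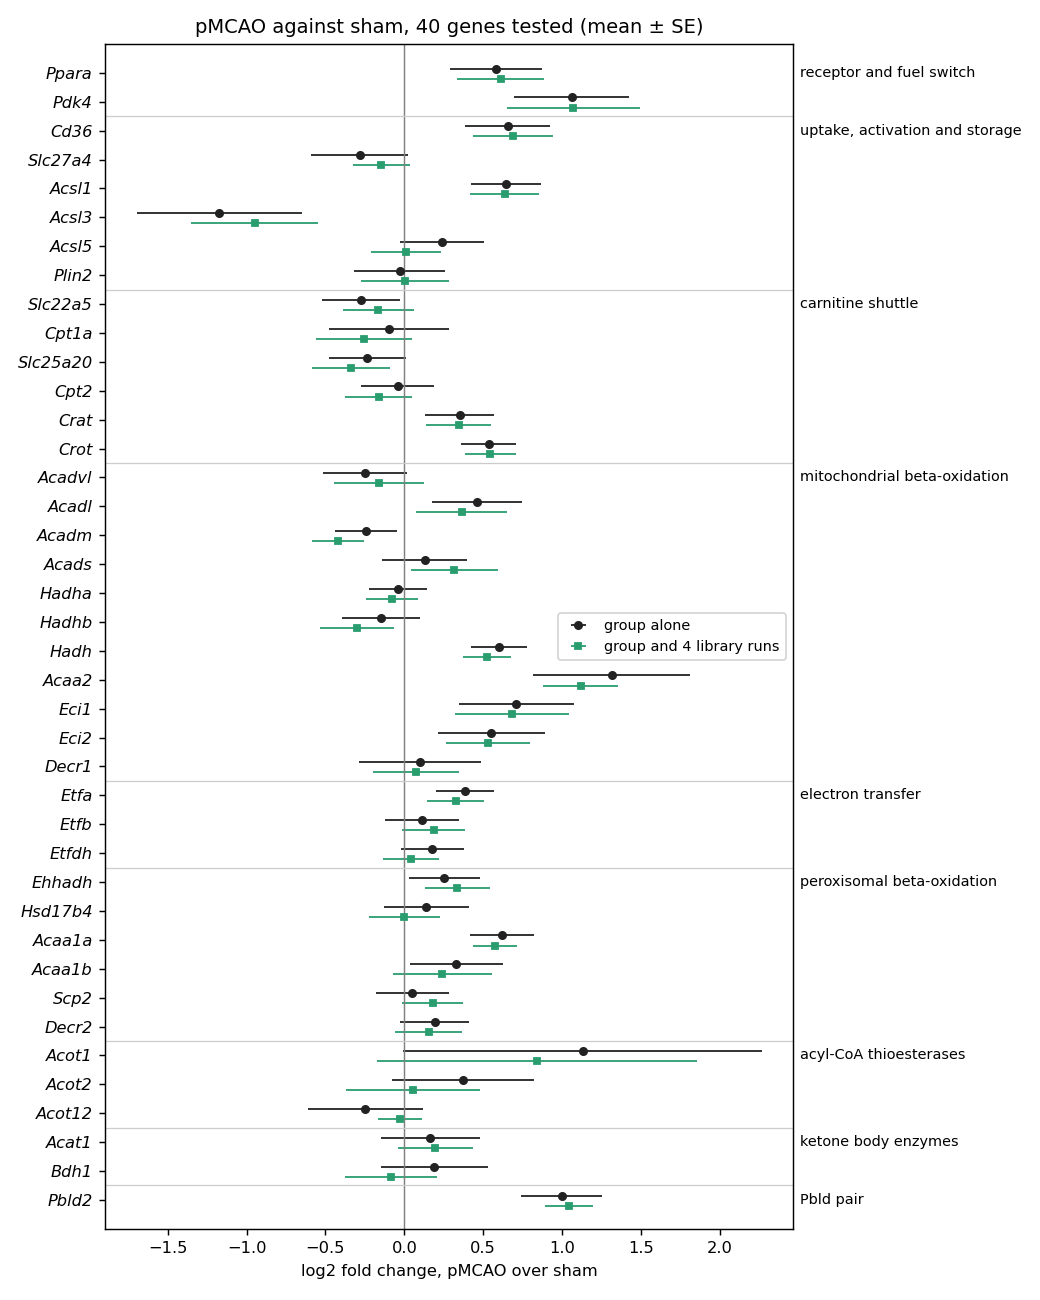
Log2 fold change of pMCAO over sham for the 40 genes tested (horizontal axis), grouped by role, from the fit on group alone (black circles) and the fit on group and 4 library runs (green squares), with bars of ± SE. Acaa2, Acot1, Pdk4 and Pbld2 lie furthest to the right with group alone, and Acsl3, at -1.17, furthest to the left.

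Pbld2, which encodes a protein with a phenazine biosynthesis-like domain, had the smallest p of the set. It was listed apart from the steps of fatty acid oxidation. Counts of members that were higher, called or without overlap include it. The gene lies at chr10:63024315-63058813 on the plus strand. It was measured at 79.2, 48.6, 52.1, 110 and 106 CPM in pMCAO samples 1 to 5, and at 22.4 (lowest), 43.7 (median) and 45.1 CPM (highest) in sham. All 5 pMCAO samples were thus above all 7 sham samples, although samples 2 and 3 were so by a small margin. The log2 fold change was 1.00 ± 0.26 (SE; adjusted p = 0.296, limma-voom). With the library runs it was 1.05 ± 0.15 (adjusted p = 0.00611), and Pbld2 rose by 0.88, 0.88 and 1.26 on the log2 scale within runs 1, 2 and 3. The paper compared 7 sham with 6 pMCAO mice, against 5 pMCAO samples here, and corrected for the day of tissue collection. It lists Pbld2 as differentially expressed. The call of Pbld2 with these runs was therefore not independent of that result. That call was lost without sham sample 6 (0.93, adjusted p = 0.137) and without the early libraries (1.12, adjusted p = 0.214), while edgeR and DESeq2 with the same runs gave 0.98 and 0.97, just under the limit of 1. Of its longest transcript, 2.41% was shared with other transcripts in windows of 100 bases, Pbld1 among them, and its exons overlap Gm16143 on the opposite strand.

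Among the regulators, Ppara, the gene of PPAR-alpha itself, was measured at 8.46, 10.2, 13.5, 8.56 and 13.5 CPM in pMCAO, and at 3.74, 7.48 and 12.7 CPM (lowest, median, highest) in sham. All pMCAO samples were above the sham median and the ranges overlapped. Its log2 fold change was 0.58 ± 0.29 (adjusted p = 0.605). Pdk4, a kinase that switches off pyruvate dehydrogenase and so spares glucose when fat is burned, was measured at 188, 40.6, 304, 174 and 113 CPM in pMCAO, and at 46.6, 63.7 and 91.3 CPM in sham. pMCAO sample 2 was below every sham sample, whereas the other 4 were above every sham sample. The log2 fold change of Pdk4 was 1.06 ± 0.37 (adjusted p = 0.453), and DESeq2 gave 1.26 with an adjusted p of 0.0493. Within runs 1 to 3 the differences were 1.37, 0.55 and 1.59.

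In the group for uptake, activation and storage, 2 of 6 members had an unadjusted p under 0.05 with a higher level in pMCAO and 1 with a lower level. Cd36, a fatty acid translocase of the plasma membrane, was measured at 58.8, 22.5, 40.3, 69.0 and 34.8 CPM in pMCAO, and at 19.9, 23.5 and 33.8 CPM in sham. Only pMCAO sample 2 lay within the sham range. For Cd36 it came to 0.65 ± 0.27 on the log2 scale (adjusted p = 0.543).

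Acsl1, an acyl-CoA synthetase, was measured at 29.7, 41.5, 60.3, 67.2 and 54.6 CPM in pMCAO, and at 23.5, 32.3 and 38.5 CPM in sham. The exception was now pMCAO sample 1, from the early libraries, and the other 4 were above every sham sample. The log2 fold change of Acsl1 was 0.65 ± 0.22 (adjusted p = 0.448), and the differences within runs were -0.12, 0.45 and 1.36. Acsl3, a synthetase associated with lipid droplets, was the member with a lower level: 445, 68.6, 203, 41.6 and 58.1 CPM in pMCAO, and 114, 240.1 and 492 CPM in sham. Samples 2, 4 and 5 were below every sham sample, while sample 1 was near the highest. Its log2 fold change was -1.17 ± 0.52 (adjusted p = 0.575), with differences of 0.49, -1.11 and -2.20 within runs. The other 3 members, Slc27a4, Acsl5 and the lipid droplet coat gene Plin2, had log2 fold changes of -0.28, 0.24 and -0.03.

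In the carnitine shuttle, 1 of 6 members had an unadjusted p under 0.05. Cpt1a, the outer membrane carnitine palmitoyltransferase at the rate-limiting step of mitochondrial entry, was measured at 12.7, 30.1, 40.1, 30.9 and 18.6 CPM in pMCAO, and at 9.56, 25.3 and 51.3 CPM in sham. The pMCAO samples lay wholly inside the sham range. Its log2 fold change was -0.10 ± 0.38 (adjusted p = 0.959), and the differences within runs were -0.51, 0.35 and -1.10, so no difference was detectable within an SE of this size.

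Crot, the peroxisomal carnitine octanoyltransferase that hands shortened chains on to mitochondria, lies at chr5:8966033-8997324 on the minus strand. It was measured at 152, 99.7, 106, 125 and 94.8 CPM in pMCAO, and at 60.7, 81.3 and 91.2 CPM in sham. It was the other member without overlap between groups, which made 2 of 40 (5%), against 0.311% of all genes. Crot differed by 0.53 ± 0.17 on the log2 scale (adjusted p = 0.403), and 0.96, 0.42 and 0.31 within runs. Crat, carnitine acetyltransferase, was 0.35 ± 0.22. Of the other 3, Cpt2 was at -0.04 ± 0.23, the carrier Slc25a20 at -0.23 ± 0.24 and the carnitine importer Slc22a5 at -0.28 ± 0.25.

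Of the 11 mitochondrial beta-oxidation members, 7 had a positive and 4 a negative log2 fold change, with a median of 0.13, and 2 had an unadjusted p under 0.05, both higher. Of these signs, Hadhb turned to 0.075 with a replicate block, Decr1 to -0.025 with the early and later split, and Hadha to 0.025 without pMCAO sample 2. Hadh, the short-chain 3-hydroxyacyl-CoA dehydrogenase, was measured at 173, 117, 147, 160.2 and 183 CPM in pMCAO, and at 72.4, 99.9 and 123 CPM in sham. Only pMCAO sample 2 lay within the sham range. Hadh differed by 0.60 ± 0.18 on the log2 scale (adjusted p = 0.350), with 0.99, 0.25 and 0.48 within runs.

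Acaa2 encodes a mitochondrial thiolase, which releases acetyl-CoA at the end of a turn. It was measured at 15.1, 28.9, 50.2, 78.8 and 53.5 CPM in pMCAO, and at 3.11, 16.6 and 29.4 CPM in sham. Samples 1 and 2 were inside the sham range, and sample 1 was nonetheless above the 3 sham samples of its own early libraries, which held 4.66 CPM on average against 24.0 CPM in the later sham samples. With group alone, Acaa2 differed by 1.31 ± 0.50 on the log2 scale (adjusted p = 0.510). With the library runs Acaa2 passed, at 1.12 ± 0.24 (adjusted p = 0.0486), and it rose by 1.73, 0.97 and 1.24 on the log2 scale within runs. The call held when sham sample 7 or pMCAO sample 2 was left out, and was lost when any 1 of the other 10 samples was, with adjusted p-values from 0.0568 (without sham sample 5) to 0.277 (without sham sample 6), and without the early libraries (1.08, adjusted p = 0.347).

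The acyl-CoA dehydrogenases, which open each turn, had log2 fold changes on both sides of 0. Acadl (long-chain) was at 0.46 ± 0.29, Acads (short-chain) at 0.13 ± 0.27, Acadm (medium-chain) at -0.24 ± 0.20 and Acadvl (very long-chain) at -0.25 ± 0.26. Acadm was the member lower in every run, by -0.26, -0.44 and -0.43, with an adjusted p of 0.287 in the fit with library runs. The trifunctional protein subunits Hadha and Hadhb were at -0.04 and -0.15, and the enoyl-CoA isomerases Eci1 and Eci2, which serve unsaturated chains, at 0.71 ± 0.37 and 0.55 ± 0.34. For electron transfer to the respiratory chain, Etfa had a log2 fold change of 0.38 ± 0.18 (adjusted p = 0.592), Etfb of 0.11 and Etfdh of 0.18.

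**Figure D2:**
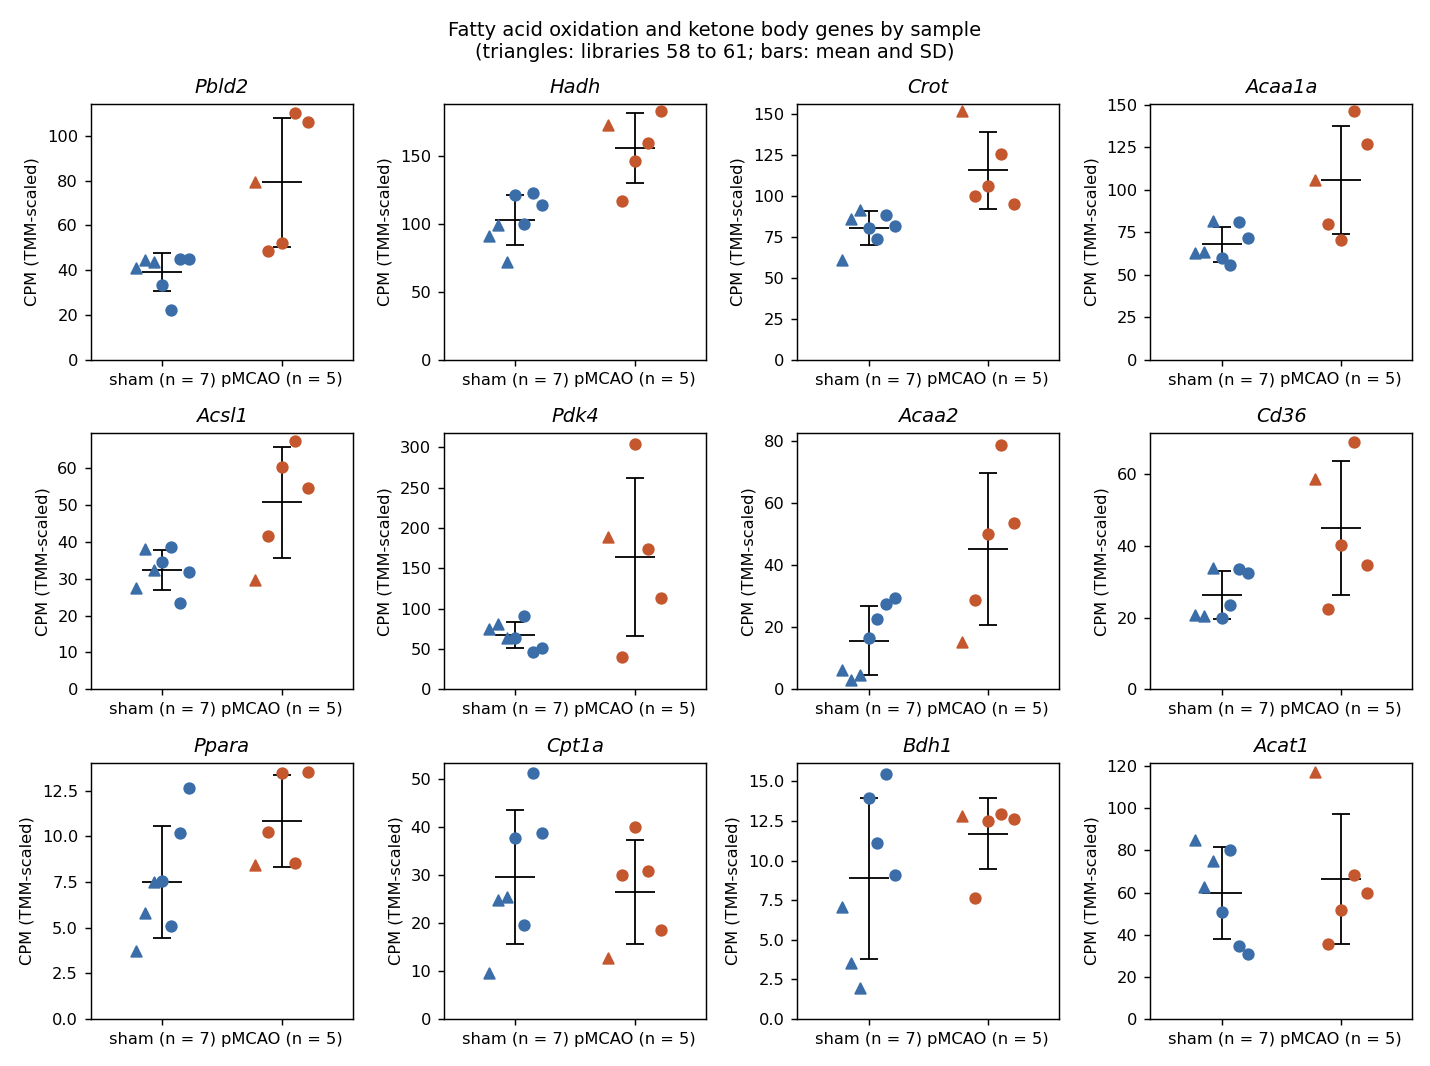
TMM-scaled CPM (vertical axis, linear, from 0) of 12 members in each sham (blue) and pMCAO (orange) sample, with triangles for the early libraries 58 to 61, circles for the later libraries, and bars of mean ± SD. All 5 pMCAO points lie above all 7 sham points for Pbld2 and Crot, whereas for Cpt1a they lie inside the sham range.

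All 6 peroxisomal members had a log2 fold change above 0, with a median of 0.22 and a range of 0.05 to 0.62, although that of Scp2 turned to -0.10 with sample quality weights and to -0.15 without the early libraries. Acaa1a, a peroxisomal thiolase, was measured at 106, 79.7, 70.5, 146 and 127 CPM in pMCAO, and at 55.5, 63.7 and 81.6 CPM in sham. Samples 1, 4 and 5 were above every sham sample. Its log2 fold change was 0.62 ± 0.20 (adjusted p = 0.421), and 0.62, 0.38 and 0.75 within runs. Acaa1a shares 9.75% of its longest transcript with its paralog Acaa1b and overlaps exons of Myd88 on the opposite strand, and the strand setting of the counting was not stated. Ehhadh, the peroxisomal bifunctional enzyme, was at 0.25 ± 0.22, Acaa1b at 0.33 ± 0.30, Decr2 at 0.19 ± 0.22 and Hsd17b4 at 0.14 ± 0.27. Scp2, which includes a thiolase for branched chains, was at 0.05 ± 0.23. The longest transcripts of Etfb (65.2%), Scp2 (32.2%), Acaa1b (30.5%), Acot2 (17.1%), Slc22a5 (13.7%) and Acot1 (12.5%) shared these parts with other transcripts, so their levels are uncertain.

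The acyl-CoA thioesterases, which release free fatty acids from coenzyme A, had 0 of 3 members at an unadjusted p under 0.05. Acot1 was near the limit of detection, at 0 CPM in 2 sham samples and at most 3.78 CPM in any sample. Acot2 was at 0.37 ± 0.45 and Acot12 at -0.25 ± 0.36.

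Acat1, the mitochondrial acetoacetyl-CoA thiolase that serves both the making and the use of ketone bodies, was measured at 117, 35.5, 51.6, 68.1 and 59.6 CPM in pMCAO, and at 30.6, 62.6 and 84.8 CPM in sham. Bdh1, which interconverts acetoacetate and beta-hydroxybutyrate, was measured at 12.8, 7.67, 12.5, 13.0 and 12.6 CPM in pMCAO, and at 1.93, 9.11 and 15.5 CPM in sham. The groups overlapped for both genes. The log2 fold change of Acat1 was 0.16 ± 0.31 (adjusted p = 0.906) and that of Bdh1 was 0.19 ± 0.34 (adjusted p = 0.896). Within runs Acat1 differed by 0.67, -0.57 and 0.88, and Bdh1 by 1.78, -0.34 and -0.27, so neither kept its sign.

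The 5 pMCAO samples were not alike over these genes. Sample 2 was the lowest of the 5 for 23 of 40 members and below every sham sample for 6, whereas sample 1 was the highest for 16 and above every sham sample for 17. The median of the log2 difference from the sham mean was -0.21 over the members in sample 2, against 0.17 over all genes in the same sample. In the other 4 samples it was 0.26 to 0.54 over the members and 0.02 to 0.17 over all genes. The summed enterocyte markers were also at their lowest pMCAO level in sample 2, at 19707 CPM, and at their highest in sample 1, at 58097 CPM. Not every enterocyte marker followed that order: Sis was at 2341 CPM in sample 2 and 1882 CPM in sample 1. The summed goblet markers went the other way, at 55208 CPM in sample 2 and 7301 CPM in sample 1. Sample 1 was the only pMCAO sample among the early libraries. The part of cell types in these differences was not tested. Without pMCAO sample 2, the members whose groups did not overlap numbered 6 (Cd36, Crat, Crot, Hadh, Pbld2 and Pdk4), against 0.633% of all genes in the same 11 samples, and the median log2 fold change of the members was 0.37. Since that sample was singled out for its low values of these genes, this is a description.

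Of the 10 enterocyte markers, 4 had an unadjusted p under 0.05 and a higher level in pMCAO, against 4.66% of all genes. They were Sis (1.14 ± 0.32), Slc5a1 (0.92 ± 0.26), Fabp2 (0.92 ± 0.38) and Fabp1 (1.00 ± 0.47, but 0.48 ± 0.30 with the library runs). The rest lay on both sides of 0: Lct at 0.45, Alpi at 0.22, Apoa1 at 0.11, Vil1 at 0.08, Apoa4 at -0.15 and Krt20 at -0.33. The marker genes in this paragraph were named after their values were seen. Of 5 ileum markers tested, 3 were higher at that level, Slc51a, Slc51b and Guca2a, at 0.50 to 0.68. The ileum markers Fabp6 and Slc10a2 were at -0.47 and 0.04. Of 6 proximal markers 1 was lower, Cybrd1 (-3.16 ± 0.95). It was near the limit of detection, at most 3.27 CPM in sham and 0.69 CPM in pMCAO. The proximal markers Gata4, Cyp2b10, Lct and Slc40a1 were at 0.29 to 0.50, and Apoa4 at -0.15. Goblet, enteroendocrine, tuft, Paneth, crypt and leukocyte lists had 0 markers at that level in either direction. Leukocyte markers summed to 87.1 to 727 CPM in sham and 96.8 to 643 CPM in pMCAO. Of 7 stromal, 3 endothelial and 4 adipocyte markers, 1, 1 and 0 were analysed here, with levels of at most 12.4 CPM. The part of epithelial composition or gut segment in the values of the fatty acid genes was not tested.

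**Figure D3:**
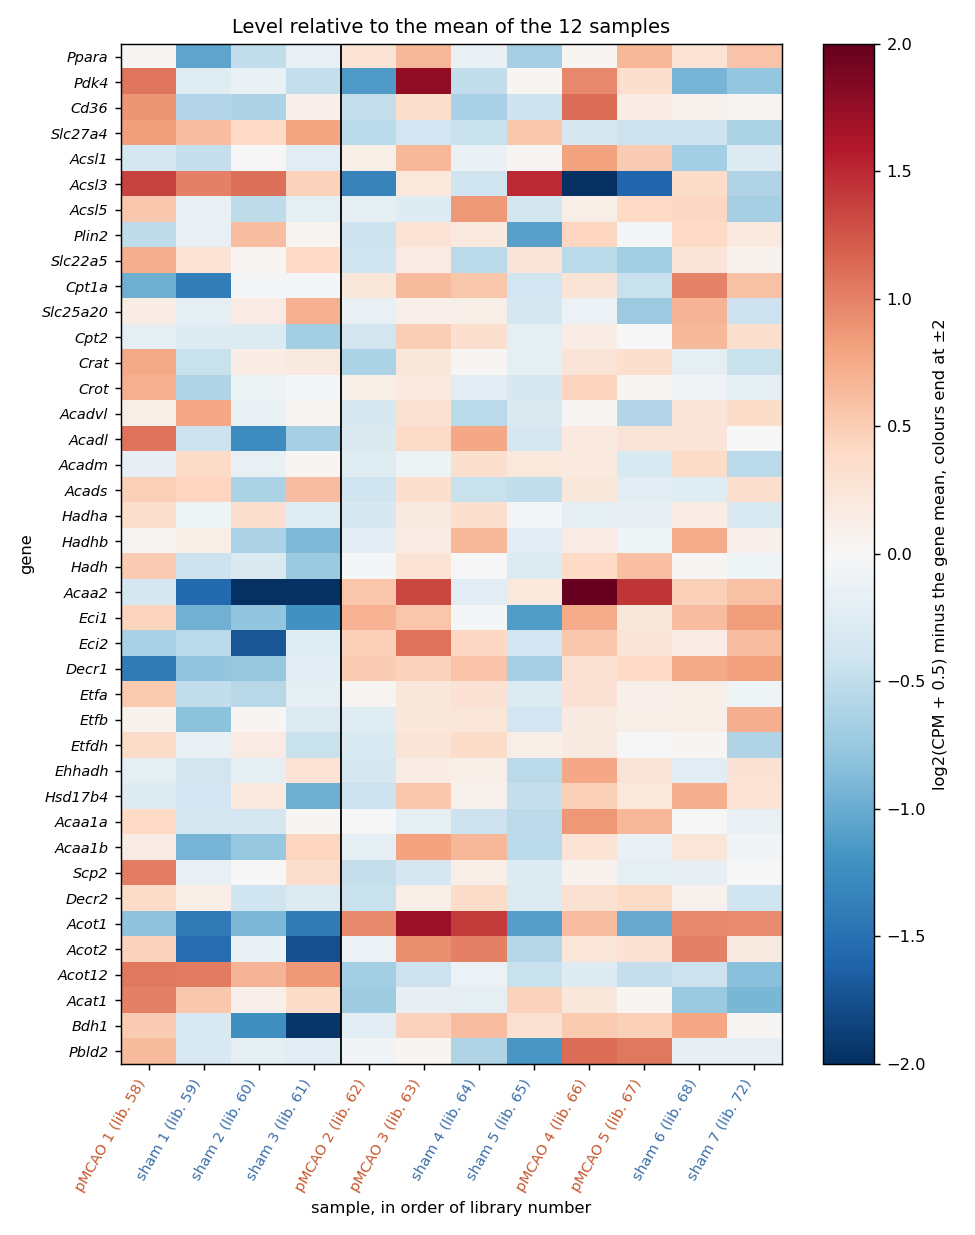
Level of the 40 members (rows, ordered by role) in the 12 samples (columns, ordered by library number, with pMCAO names in orange and sham names in blue), as log2(CPM + 0.5) minus the mean of the gene over all samples, with colours ending at ±2. The line separates the early libraries 58 to 61 from the later ones; Acaa2, Decr1 and Acot12 differ across it, and pMCAO 2 is the lowest pMCAO sample for 23 of the 40 rows.

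The split between early and later libraries passed the test for more members than the surgery did. In a fit of group and library split, 3 members were higher in the later libraries at an adjusted p of at most 0.05, against 9.2% of all genes, and 3 were lower, against 9.86%. Those shares, 7.5% of the 40 in each direction, were near the background. Acaa2 was higher by 1.97 ± 0.45 (adjusted p = 0.0062), the reductase Decr1 by 1.37 ± 0.42 (adjusted p = 0.0311) and Cpt1a by 1.22 ± 0.38 (adjusted p = 0.0326). The thioesterase Acot12 was lower, at -1.40 ± 0.15 (adjusted p = 4.21e-05), as were the fatty acid transporter Slc27a4, at -0.97 ± 0.19 (adjusted p = 0.00254), and Acat1, at -0.91 ± 0.25 (adjusted p = 0.0177). Without pMCAO sample 1, 0 of the 3 remained higher and Acat1 no longer passed. Levels of other epithelial markers differed across the same split: the summed goblet markers were 4133 to 8117 CPM in the early and 20588 to 55208 CPM in the later libraries, and the enteroendocrine markers 180 to 368 CPM and 1538 to 3229 CPM. Of the enterocyte markers, Krt20, Alpi, Apoa4, Apoa1 and Vil1 were lower in later libraries, at -1.22 to -0.68 (adjusted p from 0.000282 to 0.0150). Fabp1 and Sis were higher, at 1.31 and 0.84 (adjusted p of 0.0106 and 0.0121). Slc5a1, Fabp2 and Lct did not pass, at 0.40, 0.09 and -0.27. The part of these cell types in the values of the members was not tested.

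With the library split in the fit, 0 members were called between pMCAO and sham (0.0553% of all genes in each direction), and 8 were higher at an unadjusted p under 0.05 (5.43% of all genes) with 1 lower (4.6%). Those 8 were the ones with the smallest p in the fit on group alone: Acaa1a, Acaa2, Acsl1, Cd36, Crot, Hadh, Pbld2 and Pdk4.

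**Figure D4:**
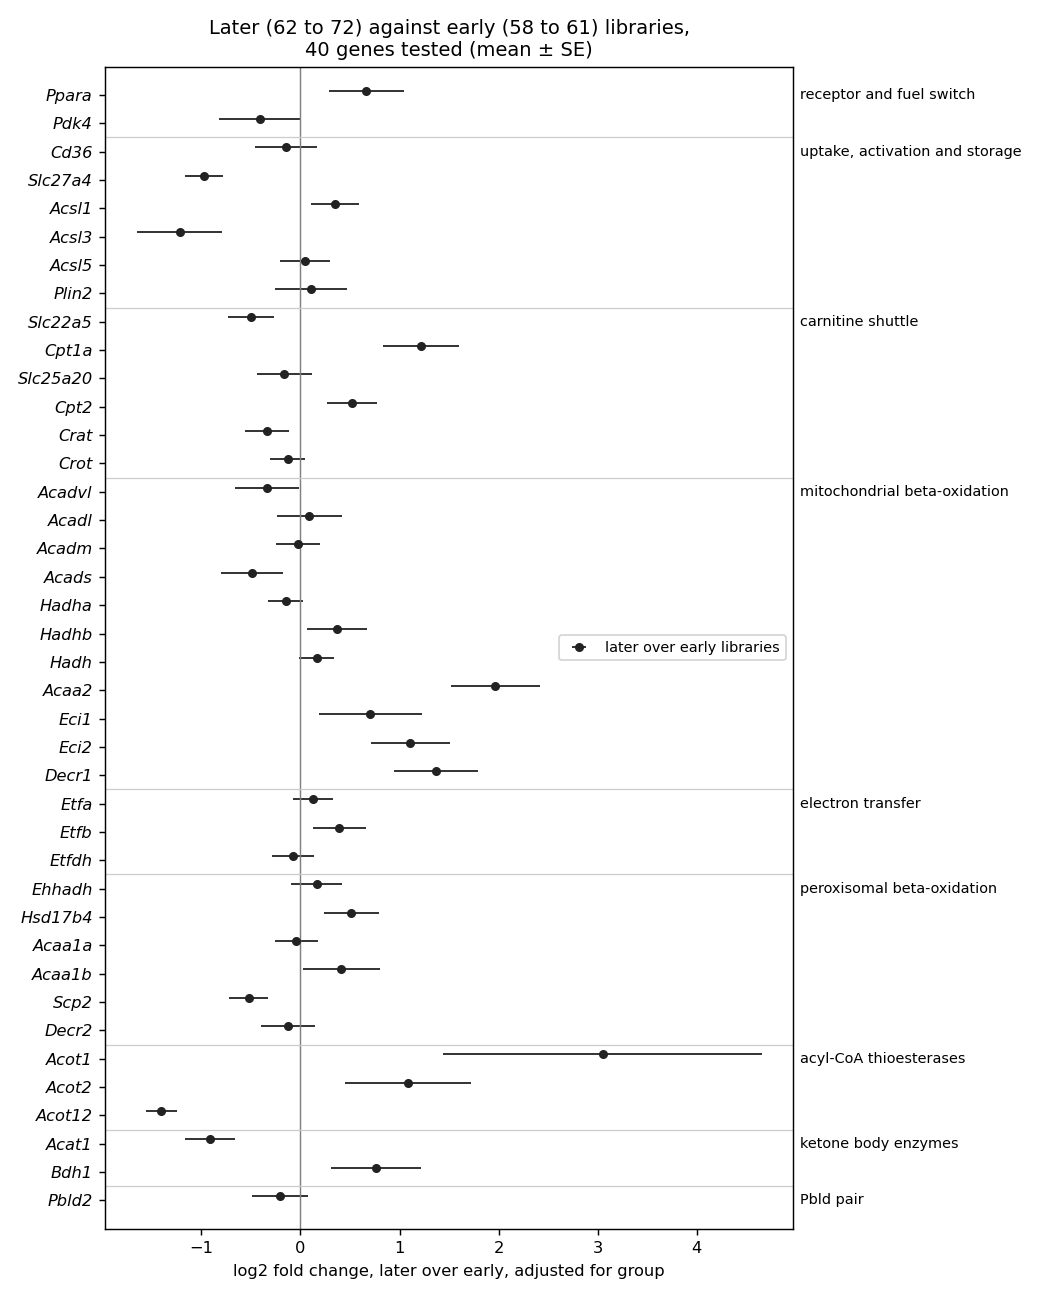
Log2 fold change of the later libraries (62 to 72) over the early libraries (58 to 61), adjusted for group, for the 40 members by role, with bars of ± SE. Acaa2, Decr1 and Cpt1a lie to the right of 0 and Acot12, Slc27a4 and Acat1 to the left; the wide bar of Acot1 belongs to a gene near the limit of detection.

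Levels can be compared between genes only per length, here as CPM per kb of merged exons in sham. The highest sham medians were those of the uptake and activation genes Slc27a4 (78.0 CPM per kb), Acsl5 (69.0) and Acsl3 (55.1), followed by Acot12 (42.4) and Scp2 (39.5). Neighbours in that order overlapped in their sham ranges. The lowest were Acot1 (0.0529), Eci1 (1.46), Eci2 (1.61) and Ppara (1.95). Cpt1a, at 3.32, was below Cpt2, at 12.5, and its highest sham sample (6.71) did not reach the lowest of Cpt2 (8.78). That separation rests on the merged-exon length, which was 7642 bases for Cpt1a against 4317 in its longest transcript. For Cpt2 the lengths were 2391 and 2372 bases. The order of other genes depends on the length used in the same way.

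Pathway genes outside the set were taken from 6 lists, and 0 of their genes were called with group alone or with library runs. For comparison, 4.66% of all genes were higher and 3.77% lower at an unadjusted p under 0.05 with group alone. The median log2 fold change of all genes was 0.06. Of 15 other PPAR-alpha targets and partners tested, 4 were higher at an unadjusted p under 0.05 and 0 lower, with a median log2 fold change of 0.36. Angptl4, an inhibitor of lipoprotein lipase, was measured at 16.3 to 78.0 CPM in pMCAO and 8.92 to 28.7 CPM in sham, with 4 of 5 pMCAO samples above every sham sample (1.38 ± 0.39, adjusted p = 0.338). Fabp2, a cytosolic fatty acid binder counted among the enterocyte markers too, was at 0.92, and Pparg, a related receptor, at 0.60 ± 0.26. Within runs 1 to 3 Fabp2 differed by 2.68, 0.44 and -0.61. Fabp1, likewise counted among the enterocyte markers, was at 1.00 ± 0.47. With the library runs Fabp1 was at 0.48 ± 0.30, with differences of 1.6, 0.23 and -0.28 within runs 1 to 3. It was also higher in the later than in the early libraries, by 1.31 ± 0.33 (adjusted p = 0.0106).

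Of 18 other fatty acid genes, not all of them mitochondrial, 2 were higher at that level and 0 lower (median 0.44). Slc27a2, a very long-chain acyl-CoA synthetase, had 42.5 to 151 CPM in pMCAO and 22.9 to 83.9 CPM in sham (1.19 ± 0.31, adjusted p = 0.306), and Echs1, the enoyl-CoA hydratase, was at 0.75 ± 0.29. Of 17 other peroxisomal genes, 3 were higher and 0 lower (median 0.34): Cat, catalase (0.51 ± 0.20), Pex11a, a factor of peroxisome division (0.71 ± 0.30), and Phyh, of phytanic acid oxidation (0.39 ± 0.16).

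Of the 6 other ketone body genes, 1 was higher and 0 lower (median 0.40). Slc16a1, a monocarboxylate transporter that carries ketone bodies, was at 0.52 ± 0.23 (adjusted p = 0.574). In the opposing pathways, 1 of 11 genes of malonyl-CoA and fatty acid synthesis was higher and 0 were lower, with a median of 0.03. The higher gene was the lipogenic factor Srebf1 (1.25 ± 0.36, adjusted p = 0.348). Its highest pMCAO sample was at 283 CPM, against a pMCAO median of 72.3 CPM and a highest sham sample of 68.1 CPM. Within runs 1 to 3 Srebf1 differed by 2.97, -0.0029 and 1.33. Of 11 genes around pyruvate dehydrogenase, 1 was lower, Pdp2, a phosphatase that reverses the action of Pdk4 (-0.88 ± 0.26, adjusted p = 0.348), and 0 were higher. Pdp2 had 7.68 to 14.9 CPM in pMCAO and 9.51 to 29.9 CPM in sham.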

How the data were processed

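RNA of sorted small intestinal epithelial cells was sequenced by the authors as paired-end reads after ribosomal RNA removal. Per the labels and the methods, reads were aligned to GRCm38 with STAR and assigned to genes with featureCounts, but no strand setting is given. Raw counts per gene in the deposited count columns were used for every test. The deposited CPM columns held those counts scaled to each sample's total and were not used. The deposited log2 columns held the authors' own fold change and average expression, and the deposited p-value columns their p-values and FDR; no value of either is given here, but the 4 library runs were worked out from those fold changes in an earlier look at these data. There were 0 sample columns without a label.

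Genes were kept with filterByExpr (minimum count of 10; 14462 kept, 1393 removed), scaled by TMM and fitted with limma-voom on group alone (limma 3.58.1, edgeR 4.0.16, R 4.3.3). The methods of the study corrected for the day of tissue collection, which the labels do not give. P-values were adjusted by Benjamini-Hochberg over all genes tested, and log2 fold changes compare pMCAO with sham, each with the SE of its fit. DESeq2 1.42.0, edgeR's quasi-likelihood test, other scalings and filters, replicate and library terms, and leaving out libraries were alternatives. Depth was 7418730 to 31925579 counts per sample, where 3 counts equal 0.094 to 0.404 CPM. The members, lists and library runs were chosen with earlier results of these data known. Members with the 8 smallest p-values, members passing with library runs, and Ppara, Cpt1a, Pdk4, Bdh1 and Acat1 were described in full. Outside the set, up to 3 genes a list with the smallest p were named, and Fabp1 in addition. Samples of a group differed by more than sampling noise in every pair (lowest chi-square per degree of freedom 14.4), so none was merged. Exon lengths, positions and shared windows came from GENCODE M21. Scripts were tested on simulated data. A single gene of the pathway lists is not reported here.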

Additional observations from a re-analysis of the deposited data

Results flagged for a closer look

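Among 80 sets of values (40 members in each group), 6 had a sample far from the others by Dixon's criterion, where chance gives about 4; all values are log2 CPM. pMCAO sample 1, from the early libraries, was high for Slc27a4 (8.86, against 7.61 ± 0.085, SD, n = 4) and Acot12 (8.31, against 6.79 ± 0.18, n = 4), and low for Decr1 (2.21, against 4.14 ± 0.090, n = 4). In each of these 3 genes it lay on the side of the early sham libraries. pMCAO sample 2 was low for Bdh1 (2.96, against 3.68 ± 0.024, n = 4). Sham sample 4 was low for Slc22a5 (4.93, against 5.70 ± 0.14, n = 6), and sham sample 5 was low for Pbld2 (4.49, against 5.39 ± 0.17, n = 6).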

How the results depend on the processing

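There were 10 other settings with all groups and 12 that left out 1 sample each. Pdk4, Acsl1, Crot, Hadh, Acaa2, Acaa1a and Pbld2 were higher at an unadjusted p under 0.05 in all 22. Cd36 was so in 9 of the 10 and 8 of the 12. Etfa, also higher at that level with group alone, was so in only 2 of the 10 and 3 of the 12. Replicate numbers did not pair the samples: same-numbered deviations correlated at 0.40, -0.24, -0.16, 0.16 and 0.082, and 3 of 10 samples correlated best with their own number. The replicate block called 2 members (Acaa2 and Pbld2; 259 genes in all), with 3 lower at an unadjusted p under 0.05, and could not test Acot1. The library number covariate and the 4 library runs each called 2 (156 and 47 genes in all), DESeq2 called 1 (Pdk4; 68 genes in all), and leaving out 1 sample always called 0. Members lower at an unadjusted p under 0.05 were 0 with edgeR and with DESeq2 and 2 with the library runs. Over all genes, the split of higher to lower was 674 to 545 (55.3% higher), but 476 to 677 (41.3%) with DESeq2. Without 1 sample, 7 to 11 members were higher and 0 to 2 lower, the median of 0.19 was 0.15 (without pMCAO 3) to 0.37 (without pMCAO 2), and 0.074 without libraries 58 to 61, and members without overlap numbered 2 to 6 higher and 0 to 0 lower. With library runs, edgeR and DESeq2 called 1, Acaa2 (21 and 115 genes in all; Pbld2 had log2 fold changes of 0.98 and 0.97, under the limit of 1), and without libraries 58 to 61 0 were called; leaving out 1 sample gave 0 (without sham 6) to 3 (without pMCAO 2), with Acaa2 lost in 10 of 12. For later over early libraries, edgeR gave 5 higher and DESeq2 6, sham samples alone gave 1 lower, and leaving out 1 sample gave 0 (without pMCAO 1) to 4 higher and 2 to 4 lower. Signs turned near 0: without libraries 58 to 61, Acsl5 -0.017, Plin2 0.067, Etfb -0.080, Scp2 -0.15, Acot2 -0.11, Acot12 0.014 and Bdh1 -0.21; with quality weights, Plin2 0.13, Cpt1a 0.011, Cpt2 0.016 and Scp2 -0.10; with the replicate block, Plin2 0.10, Cpt1a 0.13, Cpt2 0.18, Hadhb 0.075 and Acat1 -0.15; with the library number, Plin2 0.061, Cpt1a 0.061, Cpt2 0.026, Scp2 -0.013 and Acat1 -0.012; with the library block, Decr1 -0.025, Acot12 0.053 and Bdh1 -0.040; with the runs, Plin2 0.0043 and Bdh1 -0.084. Leaving out 1 sample turned signs of 9 members, whose ranges were -0.28 to 0.13 for Plin2, -0.37 to 0.14 for Cpt1a, -0.16 to 0.097 for Cpt2, -0.13 to 0.025 for Hadha, -0.22 to 0.045 for Hadhb, -0.072 to 0.36 for Decr1, -0.039 to 0.26 for Etfb, -0.20 to 0.17 for Scp2 and -0.061 to 0.36 for Acat1. The causes were not tested.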
